A study of Mus musculus with 12 samples.

Results

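The genes described here were 10 receptors and ligands of the platelet-derived growth factor (PDGF) and fibroblast growth factor (FGF) families, taken by gene symbol from the 23284 symbols measured. They comprised 4 receptors (Pdgfra, Pdgfrb, Fgfr1 and Fgfr2), 3 PDGF ligands (Pdgfa, Pdgfb and Pdgfc) and 3 FGF ligands (Fgf2, Fgf3 and Fgf7). Total RNA was sequenced in 12 libraries of secondary 1B mouse embryonic fibroblasts, cells that carry reprogramming factors switched on by doxycycline (dox). The cells were transfected with siRNA of 3 kinds: a control (siControl), one that targets the transcription factor Myc (siMyc) and one that targets the histone acetyltransferase Gcn5, encoded by Kat2a (siGcn5). They were lysed without dox or after 2 days of dox, which gave 6 groups of 2 libraries. All groups shared the same fibroblast line and a transfection, and dox was added on the day after it in embryonic stem cell medium. The study asked how Myc and the Gcn5-containing SAGA complex act in early reprogramming. The medium of the libraries without dox is not stated for this experiment, so medium and dox cannot be told apart if the media differed. The labels mention both pools and individual siRNAs and tie neither to these libraries. Whether replicates came from separate cultures is not stated, and p-values here reflect only the variation among libraries, which may be technical.

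PDGF and FGF ligands bind receptor tyrosine kinases at the cell surface, which pair up and pass the signal through adaptor proteins to the Ras-MAPK and PI3K pathways, and both families are classic growth factors for fibroblasts. PDGF ligands act as dimers, Pdgfra and Pdgfrb being their receptors, and Fgfr1 and Fgfr2 bind FGFs together with heparan sulfate. Sprouty, Spred and Dusp proteins dampen the signal, and ETS factors such as Etv4 and immediate early genes such as Egr1 are among its targets.

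Promoters of 3 genes are shown because these genes answered dox in different ways. Fgf3 was at or near 0 without dox and present with it, Pdgfra was lower with dox, and Pdgfa lay near the same level in siControl with and without dox. Each is the 250 bases before the annotated start, 5′ to 3′ on the gene's strand, with CpG dinucleotides in capitals. The sequences are from RefSeq on GRCm38.p6, matched by symbol, whereas the deposited values were made on mm9.
Fgf3, chr7:144838362-144838611, + strand: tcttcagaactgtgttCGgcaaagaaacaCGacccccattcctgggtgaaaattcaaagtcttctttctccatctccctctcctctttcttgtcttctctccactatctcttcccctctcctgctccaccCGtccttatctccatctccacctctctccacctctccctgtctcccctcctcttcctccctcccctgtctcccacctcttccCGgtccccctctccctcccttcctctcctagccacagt
Pdgfra, chr5:75152001-75152250, + strand: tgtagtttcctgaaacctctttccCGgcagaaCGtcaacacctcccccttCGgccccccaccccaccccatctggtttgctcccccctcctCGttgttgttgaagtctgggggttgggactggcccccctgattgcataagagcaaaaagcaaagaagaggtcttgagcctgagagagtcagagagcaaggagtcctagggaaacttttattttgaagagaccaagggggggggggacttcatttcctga
Pdgfa, chr5:138994945-138995194, - strand: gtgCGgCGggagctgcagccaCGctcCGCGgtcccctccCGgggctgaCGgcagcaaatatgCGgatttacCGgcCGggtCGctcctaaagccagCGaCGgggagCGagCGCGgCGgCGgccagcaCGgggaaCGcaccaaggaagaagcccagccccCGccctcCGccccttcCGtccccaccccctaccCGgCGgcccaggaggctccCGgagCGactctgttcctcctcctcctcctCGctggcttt
The stretches held 4 CpG dinucleotides for Fgf3, 4 for Pdgfra and 28 for Pdgfa, whose start shown is the more upstream of 2. The table held promoters for 7 of the 10 genes (8 promoters, all but Pdgfrb, Pdgfb and Fgfr1). Over 300 bases, from 250 before to 50 after the start, the CpG count was 14 for Fgf3, 5 for Pdgfra, 24 and 37 for the pair of Pdgfa starts, 8 for Pdgfc, 4 for Fgfr2, 24 for Fgf2 and 11 for Fgf7, against a median of 7 over 32851 promoters. Of 5 motifs searched on both strands, the GC box GGGCGG lay in both Pdgfa promoters and that of Fgf2 (35.7% of all promoters hold it). The E-box CACGTG, the core sequence bound by Myc with Max, lay, among the 8, only in that of Fgfr2 (7.15% of all promoters), inside the transcript just after the start.
Fgfr2, chr7:130266763-130266792, - strand: caattacctattCACGTGttcccttcctaa
These 30 bases have the E-box in capitals, with its first base at position 29 counting the start as 1. TGANTCA (7.81% of promoters), ATGCAAAT (1.74%) and TATAAA (13.6%) lay in none of the 8 promoters. A match is a description of letters and not of binding.

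Values are RPKM, reads scaled by transcript length and library size, which compares levels between genes per length. Libraries held 65.6 M to 188 M gene reads. Myc, the target of siMyc, had an RPKM of 21.7 and 17.6 in siControl without dox against 4.57 and 4.80 in siMyc, and of 174 and 155 against 16.9 and 26.2 with dox. Kat2a had 23.0 and 20.7 in siControl without dox against 1.33 and 1.97 in siGcn5, and 55.7 and 53.1 against 6.27 and 9.11 with dox. Both targets were therefore lower under their own siRNA, while Myc was also lower in siGcn5 without dox (9.31 and 7.10) and with it (103 and 129, log2 −0.51, adjusted p = 0.0464), and Kat2a in siMyc with dox (18.1 and 19.4). The reprogramming factor Pou5f1 lay at 0.942 to 2.58 in libraries without dox. With dox it had 288 and 249 in siControl, 97.9 and 122 in siMyc (2.44-fold lower, log2 −1.28, adjusted p = 5.0e-05) and 137 and 200 in siGcn5 (1.59-fold lower, −0.69, adjusted p = 0.00589), and its dox response was smaller than in siControl in siMyc (−1.29, adjusted p = 0.00132) and in siGcn5 (−1.44, adjusted p = 0.00453). Its part in the dox responses of the 10 genes was not tested. All 8 fibroblast markers had a mean RPKM of 1 or more in each of the 6 groups. Of endothelial markers 1 or 2 of 6 and of blood markers 1 or 2 of 5 reached that level in a group. Of pericyte and smooth muscle markers 5 or 6 of 6 did, and of epithelial markers 1 or 2 of 6 without dox and 4 or 5 with dox. That level therefore does not single out fibroblasts.

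Dox lowered the 4 receptors in all 3 arms, 3 of the 6 ligands in siControl and in siMyc, and 1 of the 6 in siGcn5. In siControl 7 of the 10 genes fell (Pdgfra, Pdgfrb, Fgfr1, Fgfr2, Pdgfc, Fgf2 and Fgf7), Fgf3 rose, and Pdgfa and Pdgfb did not pass the test. In limma's fit 74.0% of the 13175 genes tested were called for dox in siControl, 46.1% as higher and 27.9% as lower, and the median log2 change was −1.19 over the 10 genes beside 0.17 over all genes. In siMyc the same 7 genes fell and Fgf3, Pdgfa and Pdgfb rose (44.8% of all genes called, 28.9% higher and 15.9% lower), with a median of −0.55 beside 0.08. In siGcn5 the 4 receptors and Pdgfc fell, Fgf3 and Pdgfa rose, and Fgf2, Fgf7 and Pdgfb did not pass (58.4% called, 36.0% higher and 22.4% lower), with a median of −0.47 beside 0.08. All 10 genes passed the filter of an RPKM of at least 1 in 2 libraries, but Fgf3 passed through its dox libraries and Pdgfb through the groups where it is high, so their calls are less free than the others. Under median-ratio and quantile scaling the all-gene median of dox in siControl moved from 0.17 to 0.03 and to 0.00, and the share of its calls that were higher moved from 62.3% to 52.2% and 49.9%.

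In siMyc most calls among these genes came once dox was present, and so did those over all genes tested. In siGcn5 calls among these genes came already without dox. With dox, 8 of the 10 were higher in siMyc than in siControl and none was lower (74.9% of all genes called, 37.7% higher and 37.1% lower), with a median log2 difference of 0.86 beside 0.02; Pdgfa and Fgf7 did not pass. Without dox siMyc changed 2, Fgf2 upward and Pdgfa downward (23.5% called, 12.8% higher and 10.7% lower), and 5 were called when libraries were weighted by quality. In siGcn5 without dox 3 were higher (Fgfr2, Pdgfb and Pdgfc) and 5 lower (Pdgfra, Fgfr1, Pdgfa, Fgf2 and Fgf7) with 57.3% of all genes called, 36.9% higher and 20.4% lower, and with dox 3 were higher (Pdgfrb, Fgfr2 and Pdgfc) and Fgf3 lower (56.3% called, 31.4% higher and 24.9% lower). Read against those shares, the counts for siMyc lie near the background of all genes, apart from the direction with dox. For siGcn5 8 of the 10 were called without dox beside 57.3% of all genes, and 4 with dox beside 56.3%. These counts were not tested against the shares. The siMyc and siGcn5 effects were measured against the same siControl libraries.

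**Figure D1:**
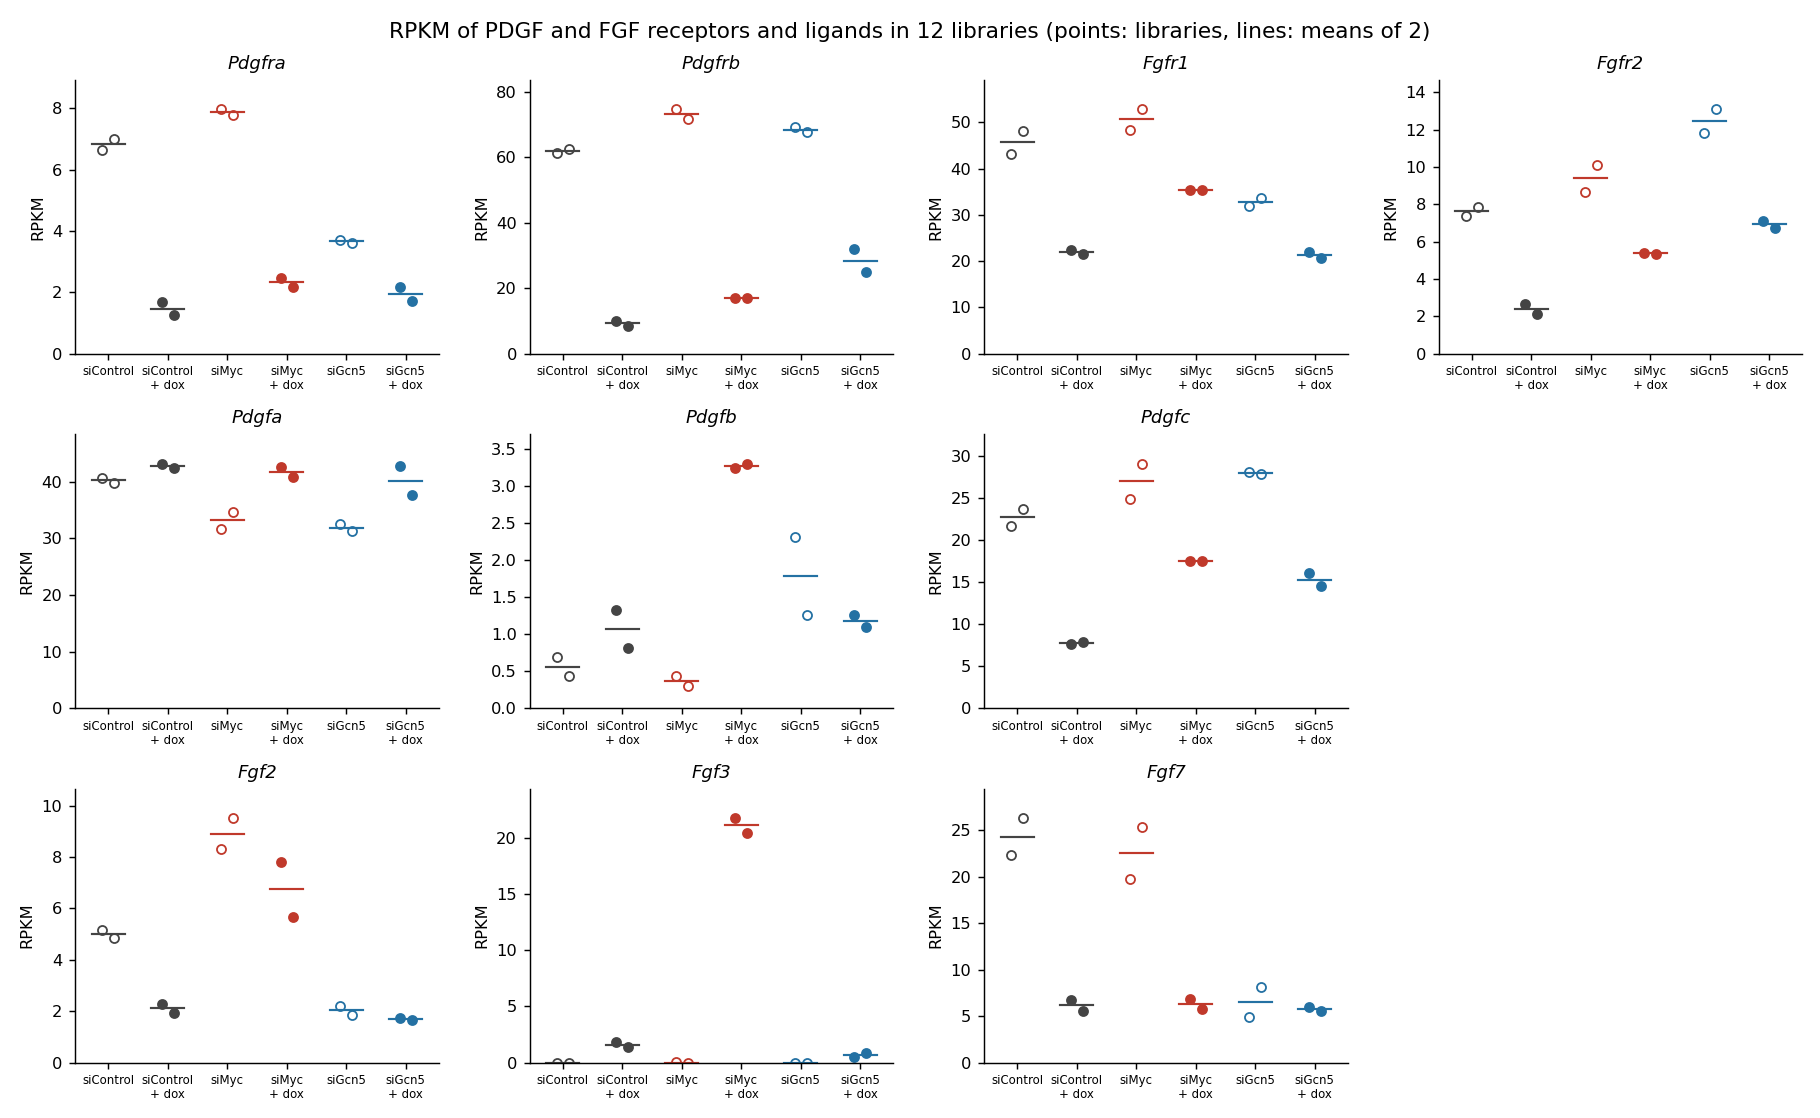
RPKM of each of the 10 genes in the 12 libraries, 1 panel per gene with its own linear axis from 0. Points are libraries, open without dox and filled with dox, and lines are the means of 2. Pdgfrb drops with dox from 61.4 and 62.5 to 9.99 and 8.50 in siControl, Pdgfa stays between 31.3 and 43.2 in all libraries, and Fgf3 reaches 21.8 and 20.5 in siMyc with dox only.

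Pdgfrb, the receptor tyrosine kinase of fibroblasts and pericytes for PDGF-B and PDGF-D, was the most abundant receptor of the 4 in libraries without dox. It had an RPKM of 61.4 and 62.5 in siControl without dox, and of 9.99 and 8.50 with dox. In siMyc it had 74.7 and 71.8 without dox and 17.0 and 16.9 with dox. In siGcn5 it had 69.1 and 67.6 without dox and 31.9 and 25.0 with dox. Every library without dox lay above every library with dox, and with dox siGcn5 lay above siMyc, which lay above siControl, with no overlap. Dox lowered Pdgfrb 6.71-fold in siControl (log2 −2.62, SE 0.11, adjusted p = 3.0e-08), 4.33-fold in siMyc (−2.05, adjusted p = 1.1e-07) and 2.40-fold in siGcn5 (−1.25, adjusted p = 7.9e-06). The drop was smaller than in siControl by 0.57 on the log2 scale in siMyc (SE 0.15, adjusted p = 0.00878) and by 1.38 in siGcn5 (SE 0.15, adjusted p = 0.0012). With dox Pdgfrb was 1.83-fold higher in siMyc than in siControl (log2 0.81, adjusted p = 5.0e-05) and 3.08-fold higher in siGcn5 (1.52, adjusted p = 8.7e-06). Without dox the difference from siControl was 0.24 in siMyc (adjusted p = 0.136) and 0.14 in siGcn5 (adjusted p = 0.286), and the former was called without siGcn5 with dox replicate 1 (adjusted p = 0.0447) or 2 (0.0446).

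Pdgfra, the receptor that also binds PDGF-A and PDGF-C, was lower than Pdgfrb in every library. Its RPKM was 6.65 and 7.0 in siControl without dox against 1.68 and 1.25 with dox. In siMyc it was 7.97 and 7.77 against 2.47 and 2.18, and in siGcn5 3.71 and 3.61 against 2.17 and 1.71. The siGcn5 libraries thus started low without dox and ended within the range of the other dox libraries. Dox lowered Pdgfra 4.66-fold in siControl (log2 −1.67, SE 0.11, adjusted p = 5.4e-07), 3.39-fold in siMyc (−1.42, adjusted p = 2.1e-06) and 1.88-fold in siGcn5 (−0.67, adjusted p = 5.0e-04). Its dox response in siGcn5 differed from that in siControl by 1.01 (SE 0.15, adjusted p = 0.00353), and in siMyc by 0.25 (adjusted p = 0.18). Without dox siGcn5 had 1.86-fold less Pdgfra than siControl (log2 −0.75, adjusted p = 2.6e-04). With dox it was 1.59-fold higher in siMyc (0.44, adjusted p = 0.0038), and siGcn5 differed from siControl by 0.26 (adjusted p = 0.0633). The latter was called without siControl with dox replicate 1 (adjusted p = 0.0252) or siGcn5 with dox replicate 2 (0.0247). The 6 groups did not overlap for Pdgfra or for Pdgfrb.

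Summed levels of cell type markers also differed between groups. The summed RPKM of the 8 fibroblast markers lay at 10749 to 10899 in siControl without dox and at 3317 to 3741 with dox, where all 8 fell, and at 6709 to 6789 in siMyc and 4138 to 4755 in siGcn5 with dox. Of all genes tested, 74.0% were called for dox in siControl and 27.9% were lower. The 6 pericyte and smooth muscle markers summed to 4236 to 4308 in siControl without dox, where all 6 had a mean of 1 or more, and to 985 to 1277 with dox, where all 6 fell. With dox they summed to 1750 to 1766 in siMyc and to 2473 to 3258 in siGcn5. Most of each of these sums was Acta2, with a mean of 4153 in siControl without dox and 1083 with dox. With dox Acta2 had a mean of 1655 in siMyc and 2779 in siGcn5. Epithelial markers, of which 1 of 6 reached a mean of 1 in siControl without dox, summed to 6.54 to 7.53 there and to 451 to 514 with dox, and reached 1125 to 1241 in siMyc with dox. Of the 5 of them tested, 3 were higher and 1 lower in siMyc than in siControl with dox (74.9% of all genes called, 37.7% higher and 37.1% lower). The keratin Krt14, which made up most of that sum, had 954 ± 71 against 334 ± 32 (SD, n = 2, log2 1.51, adjusted p = 1.8e-06). The adhesion protein Cdh1 had 5.05 ± 0.10 against 17.0 ± 1.8 (−1.57, adjusted p = 5.1e-07). Both passed the filter only through libraries with dox. In siGcn5 without dox, where Pdgfrb did not pass the test, the fibroblast sum was 7813 to 8175. Of its 8 markers 6 were lower than in siControl and 1 higher (57.3% of all genes called, 36.9% higher and 20.4% lower). The pericyte and smooth muscle sum was 5021 to 5484, with Acta2 at a mean of 5134. Of these markers 3 were higher, such as Myh11 (38.6 against 10.3), and 2 lower, such as Cspg4 (6.07 against 22.7). The epithelial sum was 36.5 to 41.9, with Krt18 at a mean of 34.1. With dox the fibroblast sum was higher in siMyc than in siGcn5, the reverse of the order of Pdgfrb. The pericyte and smooth muscle sum with dox had the same order of arms as Pdgfrb, but its single markers did not all share it. Acta2 did, as did Myh11 (means of 2.03 in siControl, 4.86 in siMyc and 18.0 in siGcn5) and Des (3.74, 9.41 and 10.9). Cspg4 with dox was highest in siMyc and lowest in siGcn5 (36.6 in siMyc, 10.2 in siControl and 7.56 in siGcn5). No marker of these lists was at 0 in both libraries of a group. Their part in the changes of the receptors was not tested, and in bulk RNA fewer cells of a type and less RNA per cell cannot be told apart.

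Fgfr1, the main FGF receptor of mesenchymal cells, had a higher level than Pdgfrb in siControl and siMyc with dox and a lower one in the other groups. Its RPKM was 43.2 and 48.2 in siControl without dox and 22.5 and 21.5 with dox. In siMyc it stood at 48.4 and 52.9 without dox and at 35.5 and 35.3 with dox. The siGcn5 libraries lay at 31.9 and 33.6 without dox and at 21.9 and 20.6 with dox. With dox siMyc lay above the other arms, while siControl and siGcn5 overlapped. Dox lowered Fgfr1 2.08-fold in siControl (log2 −1.02, SE 0.08, adjusted p = 1.2e-06), 1.43-fold in siMyc (−0.50, adjusted p = 3.6e-04) and 1.54-fold in siGcn5 (−0.60, adjusted p = 1.0e-04). The drop was smaller than in siControl by 0.52 in siMyc (SE 0.11, adjusted p = 0.00257) and by 0.42 in siGcn5 (SE 0.11, adjusted p = 0.0195). The second of these was lost without siControl without dox replicate 2 (adjusted p = 0.0817), siControl with dox replicate 2 (0.0666), siGcn5 without dox replicate 1 (0.07) or siGcn5 with dox replicate 1 (0.0575). Fgfr1 was 1.61-fold higher in siMyc than in siControl with dox (0.66, adjusted p = 1.9e-05) and 1.39-fold lower in siGcn5 without dox (−0.47, adjusted p = 5.3e-04).

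Fgfr2, the FGF receptor whose epithelial form binds Fgf7 and Fgf10, had its highest level in siGcn5 rather than in siControl. Its RPKM was 7.40 and 7.88 in siControl without dox and 2.64 and 2.15 with dox. Its siMyc libraries had 8.67 and 10.1 without dox and 5.39 and 5.35 with dox. In siGcn5 the libraries without dox had 11.8 and 13.1 and those with dox 7.11 and 6.75. No neighbouring groups overlapped, and siGcn5 was highest both without and with dox. Dox lowered Fgfr2 3.19-fold in siControl (log2 −1.35, SE 0.10, adjusted p = 1.2e-06), 1.75-fold in siMyc (−0.70, adjusted p = 2.5e-04) and 1.80-fold in siGcn5 (−0.76, adjusted p = 1.4e-04). Against siControl, siGcn5 was 1.63-fold higher without dox (0.64, adjusted p = 4.3e-04) and 2.89-fold higher with dox (1.23, adjusted p = 2.1e-05), and siMyc was 2.24-fold higher with dox (0.91, adjusted p = 1.5e-05). The dox response differed from siControl by 0.65 in siMyc (SE 0.14, adjusted p = 0.00357) and by 0.59 in siGcn5 (SE 0.14, adjusted p = 0.0157). The latter was lost without siControl without dox replicate 2 (adjusted p = 0.0622), siControl with dox replicate 2 (0.0601) or siGcn5 without dox replicate 1 (0.0598).

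With Fgfr1 lower and Fgfr2 higher in siGcn5 without dox, their proportion differed too. Fgfr2 made up 14.3% ± 0.40 of the summed RPKM of Fgfr1 and Fgfr2 in siControl without dox and 9.81% ± 1.0 with dox (SD, n = 2 here and in the shares that follow). In siMyc it made up 15.6% ± 0.63 and 13.2% ± 0.0084, and in siGcn5 27.5% ± 0.73 and 24.6% ± 0.12. Among the PDGF receptors Pdgfrb held 90.1% ± 0.21 in siControl, 90.3% ± 0.089 in siMyc and 94.9% ± 0.017 in siGcn5 without dox. With dox its shares were 86.4% ± 1.1, 87.9% ± 0.89 and 93.6% ± 0.038 in the same order. Fgfr2 shares in the 4 siGcn5 libraries, from 24.5% to 28.1%, lay above those of all other libraries, from 9.10% to 16.1%. These shares had no test of their own. Exons of Fgfr2 and Ctbp2 overlap on the same strand in GENCODE, so reads of the pair may not be fully separated.

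**Figure D2:**
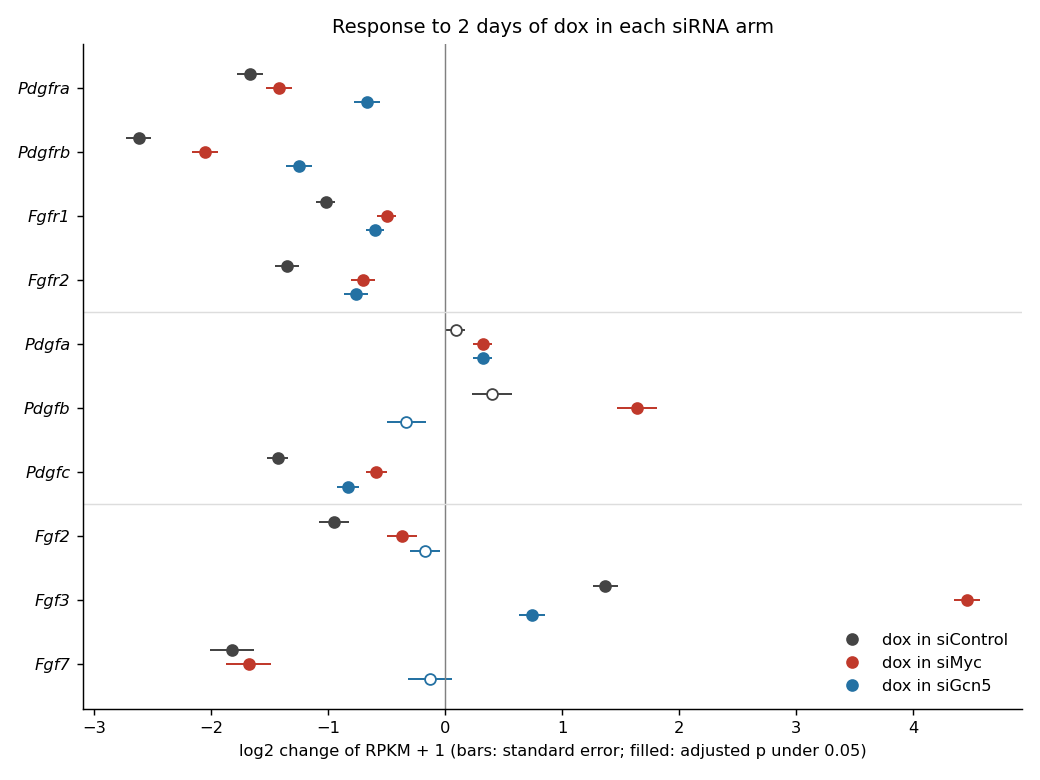
Log2 change of RPKM + 1 with dox for each of the 10 genes in siControl, siMyc and siGcn5, with standard errors from limma as bars and filled points for an adjusted p under 0.05. The 4 receptors lie left of 0 in all 3 arms, farthest in siControl, and Fgf3 lies right of 0 in all 3, at 4.46 in siMyc.

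Among PDGF ligands Pdgfa, which binds Pdgfra, stayed high in all groups while both receptors fell. Its RPKM was 40.7 and 39.8 in siControl without dox and 43.2 and 42.4 with dox. In siMyc the values were 31.7 and 34.7 without dox and 42.6 and 40.8 with dox. The siGcn5 libraries lay at 32.5 and 31.3 without dox and at 42.8 and 37.6 with it. The lowest values were those of siMyc and siGcn5 without dox, which overlapped each other and no other group, and with dox the siMyc libraries overlapped those of both other arms. Dox left Pdgfa within 0.09 of its level in siControl (SE 0.08, adjusted p = 0.317), a difference of −0.08 under median-ratio and −0.11 under quantile scaling. Dox raised it by 0.32 in siMyc (SE 0.08, adjusted p = 0.00616) and by 0.32 in siGcn5 (adjusted p = 0.005). Without dox it fell below siControl, with a difference of −0.27 in siMyc (adjusted p = 0.0282) and −0.32 in siGcn5 (adjusted p = 0.00455). The siMyc rise was lost under quantile scaling (log2 0.20, adjusted p = 0.0576) and without siMyc without dox replicate 1 (0.056), and the siMyc difference without dox was lost without that library (0.202) or siControl without dox replicate 1 (0.143) or 2 (0.101). The dox response did not differ by the test from siControl in siMyc (0.23, adjusted p = 0.0909) or in siGcn5 (0.23, adjusted p = 0.134), the latter being called without siGcn5 with dox replicate 2 (0.043) and under quantile scaling (0.36, adjusted p = 0.039). The former was called under median-ratio (0.33, adjusted p = 0.0195) and quantile scaling (0.31, adjusted p = 0.0365).

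Pdgfc, a ligand that becomes active after proteolytic cleavage, followed the receptors. Its RPKM was 21.7 and 23.7 in siControl without dox and 7.68 and 7.86 with dox. The siMyc libraries gave 24.9 and 29.1 without dox and 17.5 and 17.5 with it. In siGcn5 the libraries without dox had 28.1 and 27.9 and those with dox 16.1 and 14.5. Only siMyc and siGcn5 without dox overlapped, and siControl with dox was lowest. Dox lowered Pdgfc 2.92-fold in siControl (log2 −1.43, SE 0.09, adjusted p = 3.8e-07), 1.54-fold in siMyc (−0.59, adjusted p = 2.9e-04) and 1.83-fold in siGcn5 (−0.83, adjusted p = 3.0e-05). With dox it was 2.25-fold higher in siMyc (1.08, adjusted p = 1.8e-06) and 1.97-fold higher in siGcn5 (0.89, adjusted p = 4.6e-05) than in siControl. The drop was smaller than in siControl by 0.84 in siMyc (SE 0.12, adjusted p = 3.8e-04) and by 0.60 in siGcn5 (SE 0.12, adjusted p = 0.00856). Its rise in siGcn5 without dox (0.29, adjusted p = 0.0151) was lost under median-ratio scaling (0.15, adjusted p = 0.166), under quantile scaling (0.17, adjusted p = 0.13) and without siControl without dox replicate 1 (0.111) or siGcn5 without dox replicate 1 (0.0664).

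Pdgfb, the ligand of both PDGF receptors, was low throughout and highest in siMyc with dox. Its RPKM was 0.684 and 0.433 in siControl without dox and 1.32 and 0.814 with dox. In siMyc it stood at 0.439 and 0.303 without dox and at 3.24 and 3.30 with dox. The siGcn5 libraries lay at 2.31 and 1.25 without dox and at 1.25 and 1.09 with it. The siMyc libraries with dox lay above all others, and the siGcn5 libraries without dox overlapped those with dox. Dox raised Pdgfb 8.81-fold in siMyc (log2 1.64, SE 0.17, adjusted p = 2.9e-05), a response that exceeded that of siControl by 1.24 (SE 0.25, adjusted p = 0.00209). In siControl the difference with dox was 0.40 (adjusted p = 0.0583), which was called without siControl with dox replicate 2 (0.0303), without siGcn5 without dox replicate 1 (0.0181) or 2 (0.0181), with a pseudocount of 0.1 (log2 0.82, adjusted p = 0.0336) and on recovered reads (0.98, adjusted p = 0.0294). Pdgfb was 3.06-fold higher in siMyc than in siControl with dox (1.06, adjusted p = 2.7e-04) and 3.19-fold higher in siGcn5 without dox (0.81, adjusted p = 0.0027; 0.53 without siGcn5 without dox replicate 1, adjusted p = 0.0239). In siGcn5 the difference with dox was −0.33 (adjusted p = 0.128) and the difference from the siControl response −0.73 (adjusted p = 0.0526), both called without siGcn5 without dox replicate 2 (−0.61, adjusted p = 0.0114, and −1.01, adjusted p = 0.0109) and under quantile scaling (−0.55, adjusted p = 0.0132, and −0.78, adjusted p = 0.0333). The second was also called with a pseudocount of 0.1 (−1.33, adjusted p = 0.0494) and on recovered reads (−1.57, adjusted p = 0.0365). Pdgfa held 63.4% ± 1.6 of the summed RPKM of the 3 PDGF ligands in siControl without dox and 82.9% ± 0.17 with dox, against 54.8% ± 1.0 and 66.8% ± 0.63 in siMyc and 51.7% ± 0.069 and 70.9% ± 0.34 in siGcn5.

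Fgf2, basic FGF and a strong mitogen of fibroblasts, was raised by siMyc with and without dox and lowered by siGcn5 without dox. Its RPKM was 5.16 and 4.86 in siControl without dox and 2.30 and 1.92 with dox. Its siMyc libraries had 8.30 and 9.52 without dox and 7.81 and 5.68 with dox. In siGcn5 the libraries without dox had 2.21 and 1.85 and those with dox 1.73 and 1.65. Every siMyc library lay above every siControl library, and siGcn5 without dox overlapped only siControl with dox. Against siControl, siMyc was 1.78-fold higher without dox (log2 0.72, SE 0.13, adjusted p = 0.00442) and 3.19-fold higher with dox (1.30, adjusted p = 8.2e-06), and siGcn5 was 2.47-fold lower without dox (−0.99, adjusted p = 1.7e-04). With dox siGcn5 differed from siControl by −0.21 (adjusted p = 0.201). Dox lowered Fgf2 2.37-fold in siControl (−0.95, adjusted p = 8.6e-05), while the difference with dox was −0.17 in siGcn5 (adjusted p = 0.295). Under quantile scaling both of these siGcn5 differences were called, at −0.33 from siControl with dox (adjusted p = 0.0448) and at −0.39 with dox in siGcn5 (adjusted p = 0.0197). Its drop in siMyc (−0.37, adjusted p = 0.0448) was lost with a pseudocount of 0.1 (adjusted p = 0.0634), with no filter (0.0825) and without any 1 library other than siMyc with dox replicate 1 and the siGcn5 libraries without dox, the values ranging from −0.17 (adjusted p = 0.36, without siMyc with dox replicate 2) to −0.57 (0.00736, without siMyc with dox replicate 1).

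The dox response of Fgf2 differed from that of siControl by 0.59 in siMyc (SE 0.19, adjusted p = 0.0231) and by 0.78 in siGcn5 (SE 0.19, adjusted p = 0.015). The first was lost without siControl without dox replicate 1 (adjusted p = 0.0694), siControl with dox replicate 2 (0.0846), siMyc without dox replicate 1 (0.0803) or siMyc with dox replicate 1 (log2 0.39, adjusted p = 0.0856), and with no filter (0.0519). The second was lost without siControl without dox replicate 1 (0.0529) or siControl with dox replicate 2 (0.0591), and on recovered reads (0.0649). Exons of Nudt6, a hydrolase gene, overlap those of Fgf2 on the opposite strand. The kit marks strand, but strand in counting is not given in the sources used here, so reads of the pair cannot be told apart with certainty. Exons of Gm43439 overlap those of Fgf2 on the same strand, where strand would not separate reads. Others of the 10 genes have such overlaps too. On the opposite strand they are Gm16159 for Fgfr1, 6330403L08Rik for Pdgfa, Gm16000 for Pdgfc, and Gm42802 and Gm42803 for Pdgfra. Mir7025 overlaps Pdgfra on the same strand. Nudt6 itself was at 4.19 and 3.48 in siControl without dox, 4.84 and 5.58 in siMyc and 2.94 and 3.26 in siGcn5, and was 1.42-fold higher in siMyc than in siControl with dox (0.39, adjusted p = 0.00654). Without dox it was higher in siMyc than in siControl (0.36, adjusted p = 0.033) and than in siGcn5 (0.60, adjusted p = 8.3e-04). Its difference between siGcn5 and siControl without dox did not pass (−0.23, adjusted p = 0.0826).

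Fgf7, keratinocyte growth factor, which mesenchymal cells make for epithelial cells, was lowered by dox in siControl and siMyc, and by siGcn5 without dox. Its RPKM was 22.3 and 26.3 in siControl without dox and 6.75 and 5.53 with dox. In siMyc the values were 19.7 and 25.3 without dox and 6.83 and 5.77 with dox. The siGcn5 libraries lay at 4.91 and 8.17 without dox and at 5.94 and 5.56 with it. The 4 libraries of siControl and siMyc without dox stood above the other 8, which overlapped. Dox lowered Fgf7 3.95-fold in siControl (log2 −1.82, SE 0.19, adjusted p = 1.3e-05) and 3.57-fold in siMyc (−1.68, adjusted p = 5.5e-05), and siGcn5 without dox was 3.71-fold below siControl (−1.78, adjusted p = 5.7e-05). In siGcn5 the difference with dox was −0.13 (SE 0.19, adjusted p = 0.601). That response differed from siControl by 1.70 (SE 0.28, adjusted p = 0.00437), and the siMyc response by 0.15 (adjusted p = 0.676). Without siGcn5 without dox replicate 2 the difference with dox in siGcn5 was 0.19 (adjusted p = 0.376).

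Fgf3, an FGF known from the early embryo, was at or near 0 without dox and came up with it. Its RPKM was 0 and 0 in siControl without dox and 1.82 and 1.37 with dox. The siMyc libraries gave 0.0107 and 0 without dox and 21.8 and 20.5 with it. In siGcn5 the libraries without dox had 0 and 0 and those with dox 0.495 and 0.860. All 6 libraries with dox lay above all 6 without, and the siMyc libraries with dox lay above all others. Whole reads recovered from the RPKM steps numbered 0, 2 and 0 in siControl, siMyc and siGcn5 without dox, over 285 M, 287 M and 210 M gene reads, and 448, 6305 and 155 with dox, over 230 M, 254 M and 194 M. A count of 0 allows up to 3 reads per group, or an RPKM of 0.00882 in siControl and 0.0119 in siGcn5. Against that floor Fgf3 with dox was at least 181-fold higher in siControl and at least 56.7-fold higher in siGcn5. In siMyc the ratio of reads per depth was 3562 (exact 95% interval 986 to 29419, counting error only).

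On the log2(RPKM + 1) scale, which understates such changes, Fgf3 rose with dox by 1.37 in siControl (SE 0.11, adjusted p = 2.3e-06), by 4.46 in siMyc (adjusted p = 5.5e-10) and by 0.74 in siGcn5 (adjusted p = 3.8e-04). With dox it was 13.3-fold higher in siMyc than in siControl (log2 3.10, adjusted p = 3.9e-08) and 2.35-fold lower in siGcn5 (−0.63, adjusted p = 0.00107). The dox response exceeded that of siControl by 3.09 in siMyc (SE 0.16, adjusted p = 1.8e-06), a call that was lost on recovered reads (2.55, adjusted p = 0.0536). In siGcn5 it differed by −0.63 (adjusted p = 0.019), and that call was lost on recovered reads (−1.76, adjusted p = 0.226) and without siControl without dox replicate 1 (0.0574) or 2 (0.0609), siControl with dox replicate 1 (0.0581), siGcn5 without dox replicate 1 (0.057) or siGcn5 with dox replicate 1 (0.0514). With a pseudocount of 0.1 the rises with dox were 4.07 in siControl, 7.66 in siMyc and 2.92 in siGcn5.

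The mix of the 3 FGF ligands among the 10 genes differed between the arms. Fgf2, Fgf3 and Fgf7 summed to an RPKM of 29.3 ± 2.6 (SD, n = 2) in siControl without dox and 9.85 ± 1.4 with dox, to 31.4 ± 4.8 and 34.2 ± 3.2 in siMyc, and to 8.57 ± 2.1 and 8.12 ± 0.063 in siGcn5. Fgf7 held 82.8% ± 2.3 of the sum in siControl without dox and 62.4% ± 0.42 with dox. In siMyc it held 71.5% ± 1.7 and 18.4% ± 0.49, where Fgf3 held 62.0% ± 3.1 with dox against 16.1% ± 0.85 in siControl and 8.36% ± 3.2 in siGcn5. The siMyc libraries with dox summed to 36.4 and 31.9, against 27.4 to 34.8 in the siControl and siMyc libraries without dox, and Fgf3 in place of Fgf7 held most of the sum. These sums and shares had no test of their own. They leave out the other FGF ligands and are not shares of all FGF ligand RNA. Fgf18, for instance, had a mean of 21.8 in siMyc with dox and 3.09 in siControl with dox, and Fgf13 had 6.41 in the latter.

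**Figure D3:**
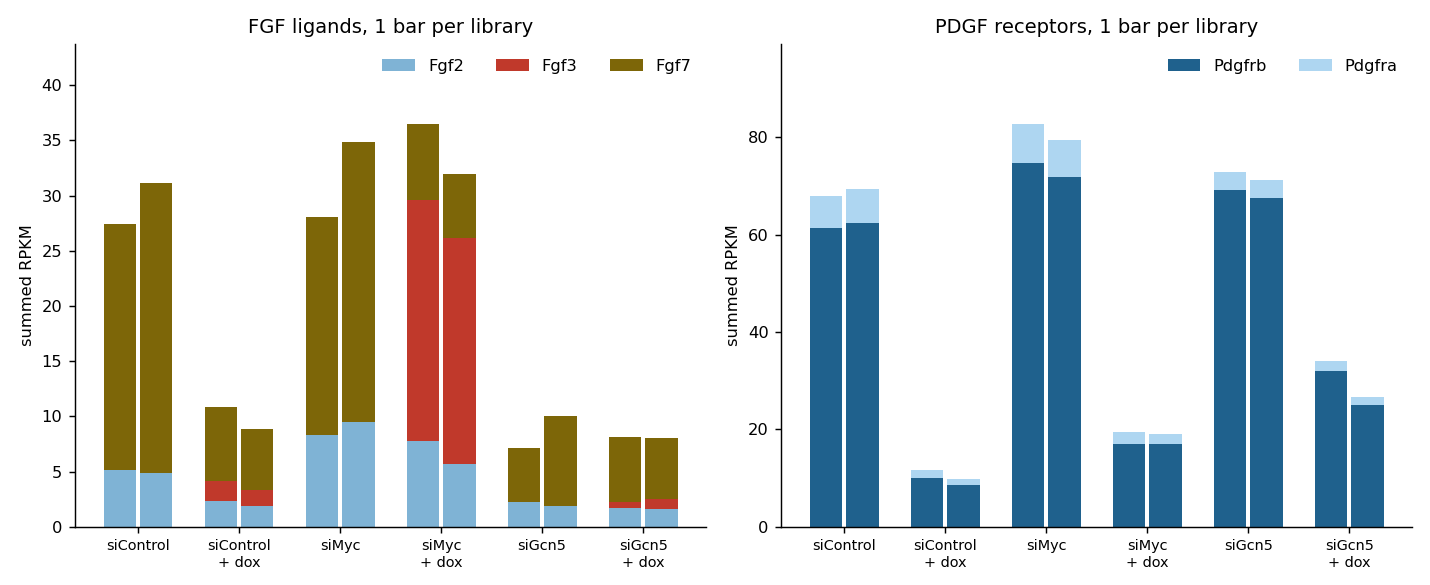
Summed RPKM of the FGF ligands Fgf2, Fgf3 and Fgf7 (left) and PDGF receptors (right), 1 stacked bar per library from 0, coloured by gene. In siMyc with dox the Fgf3 segment is 21.8 and 20.5, and the PDGF receptor sum in siGcn5 with dox (34.1 and 26.7) stands above that in siControl with dox (11.7 and 9.74).

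The test of each siRNA on the dox response gave 7 genes of the 10 with a more positive log2 change in siMyc than in siControl and none with a more negative one (54.1% of all genes called, 24.8% higher and 29.3% lower), with a median of 0.58 beside −0.03. For siGcn5 it gave 7 more positive and 1 more negative (25.9% called, 11.4% higher and 14.5% lower), with a median of 0.59 beside −0.08. A positive value here means a smaller drop for the genes that fell and a larger rise for Fgf3 and Pdgfb. It does not by itself mean a higher level with dox. In siGcn5 Pdgfra, Fgfr1, Fgf2 and Fgf7 were already below siControl without dox (log2 −0.75, −0.47, −0.99 and −1.78). With dox they did not differ from siControl in the main fit (0.26, −0.05, −0.21 and −0.08). The count for siGcn5 was 5 without siControl without dox replicate 2, siControl with dox replicate 2 or siGcn5 without dox replicate 1. Pdgfrb, Fgfr1, Fgfr2, Pdgfc and Fgf2 were called upward in both tests, which share the siControl libraries. Fgfr1 and Fgf2 were above siControl with dox in siMyc (log2 0.66 and 1.30) but not in siGcn5.

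**Figure D4:**
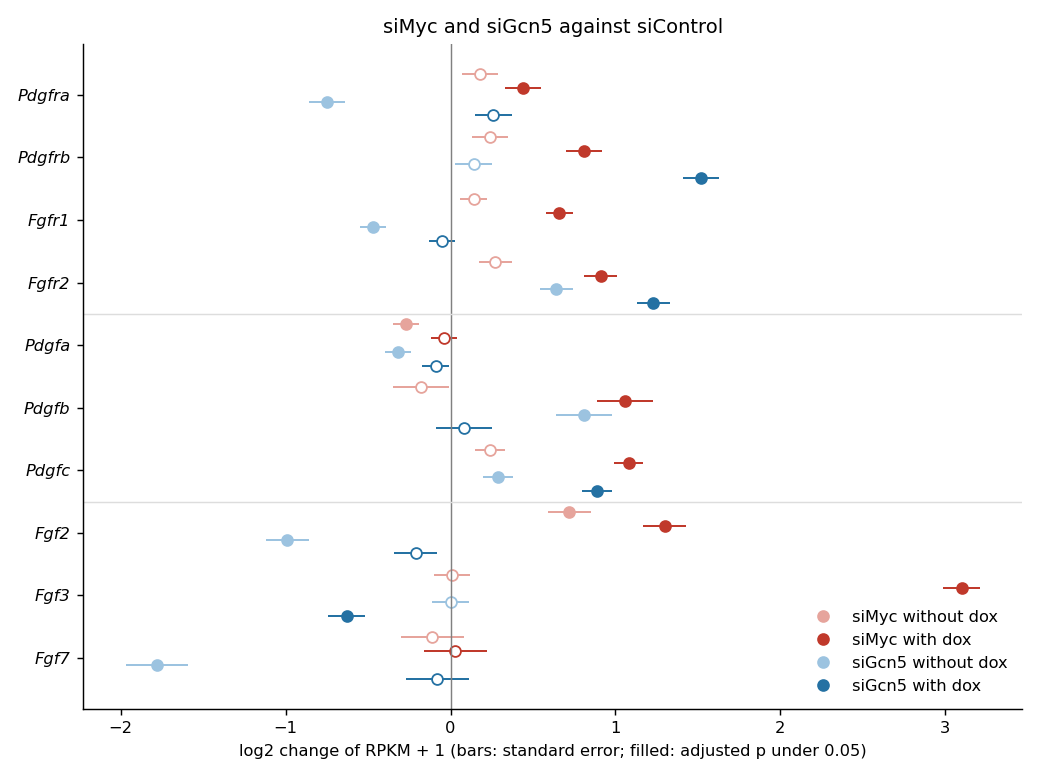
Log2 difference of RPKM + 1 from siControl for each of the 10 genes in siMyc and siGcn5, without and with dox, with standard errors from limma as bars and filled points for an adjusted p under 0.05. With dox siMyc lies at 3.10 for Fgf3 and 1.30 for Fgf2, and siGcn5 at 1.52 for Pdgfrb and 1.23 for Fgfr2; Fgf7 lies at −1.78 in siGcn5 without dox.

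Set directly against each other, the siRNAs differed in 6 of the 10 genes both without dox (58.7% of all genes called, 22.2% higher and 36.5% lower in siMyc) and with dox (65.9%, 27.3% higher and 38.6% lower). Without dox siMyc was 4.40-fold above siGcn5 for Fgf2 (log2 1.71, SE 0.13, adjusted p = 7.8e-06), 3.44-fold for Fgf7 (1.66, adjusted p = 6.7e-05), 2.15-fold for Pdgfra (0.93, adjusted p = 6.3e-05) and 1.54-fold for Fgfr1 (0.61, adjusted p = 9.5e-05). It was 4.80-fold below siGcn5 for Pdgfb (−0.99, adjusted p = 7.7e-04) and 1.33-fold for Fgfr2 (−0.37, adjusted p = 0.00861). With dox siMyc was 31.2-fold above siGcn5 for Fgf3 (3.73, adjusted p = 9.3e-09), 4.00-fold for Fgf2 (1.51, adjusted p = 4.7e-06), 2.79-fold for Pdgfb (0.98, adjusted p = 6.2e-04) and 1.67-fold for Fgfr1 (0.71, adjusted p = 1.7e-05). It was 1.68-fold below siGcn5 for Pdgfrb (−0.71, adjusted p = 1.9e-04) and 1.29-fold for Fgfr2 (−0.32, adjusted p = 0.0176). Fgf2 and Fgfr1 thus lay higher in siMyc, and Fgfr2 in siGcn5, with and without dox. The Fgfr2 difference was lost without dox without siMyc replicate 1 (adjusted p = 0.0807) or siGcn5 replicate 2 (0.0609), and with dox without siMyc replicate 1 (0.0611) or 2 (0.0643) or siGcn5 replicate 1 (0.0731) and under median-ratio scaling (−0.18, adjusted p = 0.133). With dox that scaling called siMyc above siGcn5 for Pdgfra (0.28, adjusted p = 0.0296), Pdgfa (0.21, adjusted p = 0.0274) and Pdgfc (0.33, adjusted p = 0.00729), the last also under quantile scaling (0.29, adjusted p = 0.0142).

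Other ligands of the families were mostly too low to test: 7 of 20 passed the filter. Fgf4, Fgf15 and Fgf22 passed it only through libraries with dox, so nothing is read from a count over the 7. Fgf15 had 0.00411 ± 0.0058 in siControl without dox and 2.82 ± 0.80 with it (SD, n = 2). Fgf18 rose from 0.813 ± 0.012 to 3.09 ± 0.11 (log2 1.17, adjusted p = 7.1e-05), while Fgf10, a mesenchymal ligand of Fgfr2 like Fgf7, fell from 6.10 ± 0.056 to 1.71 ± 0.41 (−1.40, adjusted p = 2.9e-06). Fgf3, Fgf4 and Fgf15 lie beside each other on chromosome 7. Fgf4 passed the filter only through siMyc with dox, so its direction in siMyc was fixed by the filter and is not read. Fgf15 lay below the filter's RPKM of 1 in siMyc with dox and passed through other arms, so its direction there is less free. With dox Fgf15 was lower in siMyc than in siControl (0.832 ± 0.042, log2 −1.04, adjusted p = 2.5e-05). Fgf4, the stem cell FGF, was listed at 0 in all libraries without dox and had 0.924 ± 0.093 in siControl, 1.55 ± 0.10 in siMyc and 0.655 ± 0.12 in siGcn5 with dox. In siMyc with dox Fgf18 reached 21.8 ± 0.25 (2.48 above siControl, adjusted p = 5.1e-07), close to the level of Fgf3.

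Most of the other receptors and binding partners tested were lower with dox in siControl, and most were higher in siMyc than in siControl once dox was present. Of 17 tested of 20, 11 fell and 4 rose in siControl with dox (median −0.91 beside 0.17; 74.0% of all genes called, 27.9% as lower), and 13 were higher and 2 lower in siMyc with dox (median 1.27 beside 0.02; 74.9% called, 37.7% as higher). Dox within siMyc gave 5 higher and 6 lower (median 0.24 beside 0.08; 44.8% called). Lrp1, an endocytic receptor that binds Pdgfrb, fell from 71.9 ± 8.3 to 18.5 ± 2.5 in siControl (log2 −1.91, adjusted p = 4.5e-06), and with dox stood at 66.0 ± 8.8 in siMyc (1.78, adjusted p = 6.4e-06) and 53.4 ± 9.8 in siGcn5 (1.48, adjusted p = 1.2e-04). Fgfbp1, a carrier that releases FGFs from the matrix, was listed at 0 in siControl without dox and reached 26.2 ± 2.5 with dox, and 36.1 ± 0.84 and 31.0 ± 2.0 in siMyc and siGcn5. It passed the filter only through libraries with dox, so its place in the counts of genes that rose with dox was fixed by the filter. Pdgfrl, a PDGF receptor-like protein, had 6.37 ± 0.48 in siControl and 32.4 ± 1.4 in siMyc with dox (2.18, adjusted p = 2.4e-07). In siGcn5 the glypican Gpc3 had 17.1 ± 1.3 without dox against 2.61 ± 0.42 in siControl (2.33, adjusted p = 1.8e-06), and Fgfr3 had 3.59 ± 1.1 against 0.770 ± 0.31 (1.36, adjusted p = 3.5e-04).

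Downstream of the receptors, the number of kinases and adaptors called lay near or below the share of all genes called. Of 32 adaptors and Ras-MAPK and PI3K genes, all tested, 15 fell and 7 rose with dox in siControl (median −0.08 beside 0.17 over all genes, of which 74.0% were called), and 14 were higher and 5 lower in siMyc with dox (74.9% of all genes called), a total of 19 that was 12 without siMyc with dox replicate 1. Mapk3, the kinase ERK1, fell from 75.4 ± 2.5 to 32.1 ± 3.4 with dox in siControl (log2 −1.21, adjusted p = 1.2e-06). The adaptor Shc1 was at 33.3 ± 3.1 in siControl and 90.9 ± 10.0 in siMyc with dox (1.42, adjusted p = 9.9e-07). In siGcn5 without dox 11 were higher and 7 lower (57.3% of all genes called), 18 in all and 11 without siGcn5 without dox replicate 1. Map2k1, the kinase MEK1 above ERK, was the most changed of them, at 22.5 ± 2.1 against 68.1 ± 2.0 in siControl (−1.56, adjusted p = 4.6e-06), and at 31.3 ± 4.7 against 56.6 ± 1.9 with dox (−0.84, adjusted p = 1.1e-04).

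Of 13 feedback inhibitors of the pathway tested, 9 were lower and 1 higher with dox in siControl (median −0.55 beside 0.17; 74.0% of all genes called, 27.9% as lower), and 12 were higher in siMyc than in siControl with dox (median 0.47 beside 0.02; 74.9% called, 37.7% as higher). That count of 12 was 5 without siControl with dox replicate 2 and 7 without siMyc with dox replicate 1. Spry1, a Sprouty inhibitor, fell from 8.54 ± 0.55 to 3.68 ± 0.0032 in siControl (log2 −1.03, adjusted p = 1.1e-04). Dusp6, a phosphatase of ERK, stood at 17.2 ± 5.8 in siGcn5 and 7.18 ± 1.5 in siControl with dox (1.13, adjusted p = 9.8e-04), where 7 of 13 were higher and 1 lower (56.3% of all genes called). In siGcn5 without dox 6 were lower and 2 higher (57.3% called), and these 8 were 3 to 5 without single libraries of siControl or siGcn5 without dox. Most ETS factors and immediate early genes called in siGcn5 were lower: of 14 tested, 8 were lower and 1 higher without dox (median −0.61 beside 0.11 over all genes, 57.3% of them called and 20.4% as lower) and 7 lower and 2 higher with dox (median −0.38 beside 0.05, 56.3% called and 24.9% as lower). Etv4 had 13.7 ± 0.32 in siControl and 4.89 ± 0.88 in siGcn5 without dox (−1.33, adjusted p = 1.9e-05), and 21.1 ± 1.9 in siControl, 8.56 ± 0.46 in siMyc (−1.21, adjusted p = 5.6e-06) and 9.99 ± 1.3 in siGcn5 (−1.01, adjusted p = 1.0e-04) with dox. Fosl1, a partner of Jun, had 36.4 ± 2.7 in siControl and 12.4 ± 0.56 in siMyc with dox (−1.48, adjusted p = 2.1e-07). In that comparison 5 of the 14 were higher and 4 lower (median 0.16 beside 0.02; 74.9% of all genes called), the higher ones including Ier3 (log2 1.13, adjusted p = 1.8e-04) and Junb (1.06, adjusted p = 2.1e-04).

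Over the 12 libraries the genes whose log2(RPKM + 1) ran closest to a receptor's were, by Pearson correlation, Fmod (0.993) and Dse (0.990) for Pdgfrb, F2r (0.992) and Pcdhgc5 (0.989) for Pdgfra, Nuak1 (0.992) and Atp1b1 (0.991) for Fgfr2, and Dkk3 (0.984) and Fbln5 (0.984) for Fgfr1. For the ligands they were AI597468 (0.990) and Tcf4 (0.989) for Pdgfc, Arhgap31 (0.988) and Scpep1 (0.981) for Fgf2, Cdsn (0.989) and Gm2a (0.989) for Fgf3, Ryk (0.975) and Nsg1 (0.968) for Fgf7, Capn7 (0.933) and Gm12657 (0.908) for Pdgfa, and Cadm4 (0.928) and Rnf167 (0.927) for Pdgfb. They were picked from 8747 or 8748 genes with a mean RPKM of 5 or more, and the 12 libraries share 6 groups and their normalization.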

How the data were processed

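RNA of 12 libraries of secondary 1B fibroblasts was depleted of ribosomal RNA and made into stranded libraries for an Illumina HiSeq instrument, per the labels' protocols. The authors deposited 1 table per library with an RPKM value for each of 23284 symbols. The submitters' processing notes list mm9 as the build and name Bowtie 0.12.8, TopHat2 2.0.9, affy, edgeR and HTSeq, with no role for any of them. Annotation, strand setting and filtering were not given in the sources used here. Since RPKM is scaled by library size, it shows shares of the RNA and not amounts per cell.

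The deposited RPKM values were used without further scaling. The 13175 genes that reached an RPKM of 1 in 2 or more libraries were fitted in 1 limma-trend model (limma 3.58.1, R 4.3.3) of log2(RPKM + 1) with a term for each group over the 12 libraries, leaving 6 residual degrees of freedom plus 4.17 from the prior. Calls used two-sided p-values from limma, Benjamini-Hochberg adjusted over the genes tested in each of 11 comparisons, and a threshold of 0.05. The pseudocount of 1 makes log2 changes of low genes too small, and fold values are ratios of mean RPKM. Interactions are the log2 dox change in siMyc or siGcn5 minus that in siControl. The RPKM steps gave back whole reads, within 0.05 read, for each of the 20788 genes not at 0 throughout. On simulated data 93.9% of 3000 genes came back with exact reads, and 99.8% of the 2208 with reads in 4 or more libraries. Depth was 65.6 M to 188 M gene reads, and intervals and floors cover counting error only. The limma fit and the read recovery were checked on simulated data.

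The 10 genes, the 5 pathway lists and the 5 marker lists were chosen with earlier results of these data known. Named were the 10 genes, Myc, Kat2a and Pou5f1, up to 4 called members of each list and comparison with the largest change, and for each of the 10 the 2 best correlated genes with a mean RPKM of 5 or more; Nudt6 was added for its overlap with Fgf2, and Fgf4 for its place beside Fgf3. Alternatives were a pseudocount of 0.1, no filter, a mean RPKM of at least 5, median-ratio and quantile scaling, limma-voom on the recovered reads, array weights, the replicate number as a block, and leaving out each library, where the lone library of a group is assumed to vary like the other groups.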

Additional observations from a re-analysis of the deposited data

Results flagged for a closer look

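The dox response of 9 of the 10 genes differed between siControl and at least 1 siRNA arm by the interaction test in limma, Pdgfa being the exception. Over all genes tested, 54.1% were called in the siMyc interaction and 25.9% in the siGcn5 interaction. The share of all genes called in at least 1 of them was not computed, so nothing is read from the count of 9. Fgf3 and Pdgfb passed the filter through groups where they are high. Values are the log2 change with dox in the siRNA arm minus that in siControl. For siMyc they were 3.09 for Fgf3, 1.24 for Pdgfb, 0.84 for Pdgfc, 0.65 for Fgfr2, 0.59 for Fgf2, 0.57 for Pdgfrb and 0.52 for Fgfr1. For siGcn5 they were 1.70 for Fgf7, 1.38 for Pdgfrb, 1.01 for Pdgfra, 0.78 for Fgf2, 0.60 for Pdgfc, 0.59 for Fgfr2, 0.42 for Fgfr1 and −0.63 for Fgf3. Fgf3 is the gene called in both with opposite signs. In siGcn5 without dox Fgf7, Fgf2, Pdgfra and Fgfr1 were below siControl (log2 −1.78, −0.99, −0.75 and −0.47). The siGcn5 values of Fgf2, Fgf3, Fgfr1 and Fgfr2 and the siMyc value of Fgf2 are those that did not hold without some single libraries. On recovered reads the siMyc and siGcn5 values of Fgf3 and the siGcn5 value of Fgf2 were not called.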

How the results depend on the processing

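Of 2156 values of the 10 genes under 20 alternative settings, 2054 kept their direction and side of the threshold, and 62 of 74 calls held under every alternative that tested the gene; none of the called values changed sign. With a mean RPKM of at least 5 only 6 of the genes were tested (Pdgfra, Pdgfb, Fgf2 and Fgf3 dropped out), and the calls were 5 for dox in siControl, 6 for dox in siMyc, 1 and 4 for siMyc without and with dox, 5 for siGcn5 without dox, 4 and 5 for the siMyc and siGcn5 interactions, and 3 and 3 for siMyc against siGcn5 without and with dox. Array weights gave 5 calls for siMyc without dox.

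Leaving out single libraries gave 8 to 9 calls for dox in siControl, 8 to 10 in siMyc and 7 to 8 in siGcn5, 1 to 3 and 8 to 8 for siMyc without and with dox, 7 to 8 and 4 to 5 for siGcn5 without and with dox, 6 to 7 and 5 to 9 for the siMyc and siGcn5 interactions, and 5 to 6 and 5 to 6 for siMyc against siGcn5. The call for siMyc without dox was 1 without either siControl library or siMyc replicate 1, all without dox. Over all genes, 3098 calls for siMyc without dox became 1264 and 1386 without siControl replicates 1 and 2 and 1068 without siMyc replicate 1, all without dox. Those of the siGcn5 interaction, 3409, became 1660 to 2188 without any of 5 libraries, and 5899 for dox in siMyc became 3787 with a mean RPKM of at least 5.

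Uncalled values that changed sign under scaling were Pdgfa for dox in siControl (−0.08 median-ratio, −0.11 quantile) and siMyc with dox (0.03 and 0.02), Pdgfc for siMyc against siGcn5 without dox (0.06 and 0.04), Pdgfrb for siGcn5 without dox (−0.00 median-ratio) and Pdgfb for siGcn5 with dox (−0.06 quantile). On recovered reads Fgf7 in siMyc with dox was −0.01. Leaving out single libraries, uncalled values of Fgf7 ran from −0.44 to 0.19 for dox in siGcn5, −0.29 to 0.06 and −0.09 to 0.16 for siMyc without and with dox, −0.20 to 0.05 for siGcn5 with dox and −0.03 to 0.32 for the siMyc interaction. Those of Pdgfb ran from −0.10 to 0.26 for siGcn5 with dox, of Pdgfa from −0.01 to 0.12 and −0.04 to 0.15 for siMyc against siGcn5 without and with dox, and of Pdgfc from −0.16 to 0.06 for that comparison without dox. The cause was not tested.

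The replicate numbers are shared by the groups with no statement that they pair cultures. Deviations of same-numbered libraries from their group means correlated at 0.09 to 0.49 over 15 pairs of groups, positive in all and over 0.1 in 14. Pairing was to be assumed only where every correlation was over 0.1, so the block was kept as an alternative. With the replicate block no call was lost. It added Pdgfb for dox in siControl (adjusted p = 0.0127), for dox in siGcn5 (0.0378) and for the siGcn5 interaction (0.0102), Pdgfc for siMyc without dox (0.0481) and Pdgfra for siGcn5 with dox (0.0288).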
